A study of Homo sapiens and Mus musculus with 56 samples.

Results

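Transcripts of 9 genes that control passage through the G1 phase of the cell cycle were measured in 5 leukaemia cell models after inhibition of the histone methyltransferase DOT1L, of menin, or of both. The genes are the kinases CDK4 and CDK6, the D-type cyclins CCND1, CCND2 and CCND3, the E-type cyclins CCNE1 and CCNE2, and the inhibitors CDKN1B and CDKN2C. They were taken by symbol from the array annotation. Of the 9 genes, 8 had a human probe set annotated to that symbol alone, among 19775 human genes with such a probe set, and all 9 had one on the mouse array, among 18193 genes. The 8 genes are read by 21 human probe sets, from 1 for CDK4 and for CDKN1B to 7 for CDK6, and the 9 mouse genes by 25. CDKN2C was not analysed here in the human cells.

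The series holds 56 Affymetrix arrays, 44 human and 12 mouse, in 20 groups. RS4;11 and SEM are human B-precursor leukaemia lines with a KMT2A-AFF1 fusion, REH is a human B-precursor line whose KMT2A genes are not fused, and MOLM-13 was established from human acute myeloid leukaemia and carries KMT2A-MLLT3. The mouse cells carry the MLL-AF9 fusion and were kept in primary culture with human IL-6, murine IL-3 and murine SCF. In each model 1 group received the solvent DMSO, 1 received EPZ004777 (an inhibitor of DOT1L), 1 received MI-2-2 (an inhibitor of the binding of menin to KMT2A), and 1 received a combination of both compounds. RS4;11, SEM and REH were treated for 6 days with 3 µM EPZ004777 or 10 µM MI-2-2, and MOLM-13 and the mouse cells for 4 days with 3 µM of either compound. The labels give no separate doses for the combination. RS4;11 DMSO and SEM DMSO, MI-2-2 and combination have 2 arrays each, and the other 16 groups have 3, a number that limits the precision of every value. The design text calls the replicates biological and names no separate cultures, so that p-values measure the spread between these samples, part of which may be technical. Each human model is 1 established line. In these bulk samples, fewer cells of a type and less RNA per cell cannot be told apart.

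D-type cyclins bind CDK4 or CDK6 in early G1, and the active kinases phosphorylate the retinoblastoma protein RB1, which then releases E2F transcription factors. The E-type cyclins, whose genes are E2F targets, activate CDK2 and drive entry into S phase. CDKN2C is an INK4 protein that binds CDK4 and CDK6 in place of a D-type cyclin, and CDKN1B is a Cip/Kip protein that inhibits cyclin E-CDK2 complexes. CDK6 is known as a gene bound by KMT2A fusion proteins and as the kinase of this pair on which many KMT2A-rearranged leukaemia cells depend.

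Promoter windows were read from RefSeq (GRCh38.p14), each running from 250 bases before a transcript start to 50 after it. The search covered 11 windows of 6 of the 9 genes: 3 for CCND3, 3 for CDKN2C, 2 for CDK6 and 1 each for CDK4, CCNE1 and CDKN1B. CCND1, CCND2 and the E-type cyclin gene CCNE2 were not searched, so that the motif counts say nothing about them. None of the 11 held an E2F motif, searched on both strands as TTTCCCGC, TTTCGCGC, TTTGCCGC or TTTGGCGC, which 3.31% of 35116 promoter windows of the same 300 bases hold. The GC box GGGCGG, searched on both strands, was in 8 of the 11 windows and in 45% of all windows. The bases before the start are shown for CDK6 (chr7:92836574-92836823, minus strand) and CCNE1 (chr19:29811741-29811990, plus strand), because CDK6 transcripts fell and CCNE1 transcripts rose in the same cells in SEM and MOLM-13. Capitals mark the GC boxes, 3 for CDK6 and 7 for CCNE1, and a match describes the letters only.
CDK6: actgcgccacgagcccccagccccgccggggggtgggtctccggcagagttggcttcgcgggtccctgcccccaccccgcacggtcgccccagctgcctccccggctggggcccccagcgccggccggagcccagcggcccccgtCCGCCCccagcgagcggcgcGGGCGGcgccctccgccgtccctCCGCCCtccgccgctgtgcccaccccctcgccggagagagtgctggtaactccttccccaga
CCNE1: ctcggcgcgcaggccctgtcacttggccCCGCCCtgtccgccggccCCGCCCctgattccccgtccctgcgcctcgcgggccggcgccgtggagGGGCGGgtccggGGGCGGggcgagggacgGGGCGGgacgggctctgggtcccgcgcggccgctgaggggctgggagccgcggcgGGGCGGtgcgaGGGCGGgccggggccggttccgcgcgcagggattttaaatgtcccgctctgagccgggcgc

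All levels are log2 values per probe set, deposited after RMA normalization. Each gene was read on its brightest probe set, the one with the largest average over a model's arrays, and was tested where this probe set exceeded percentile 40 of all values on 2 or more arrays. A gene was called changed at a Benjamini-Hochberg adjusted p under 0.05 in limma over all genes tested, with no threshold on the fold, and differences are given in log2 units ± SE. CCND1 did not pass in RS4;11 and SEM, where its brightest probe set lay between 3.74 and 4.18 in SEM and between 3.70 and 4.06 in RS4;11, at or below percentile 27.8 of the array. CDK4 and CCND2 are read in the human lines on probe sets of the _s_at type, which may bind other transcripts too. The B-lineage markers fit the labels of RS4;11 and SEM, with all 7 measured markers above percentile 40 on every DMSO array, and of REH, with 6 of 7. The mouse cells had all 9 measured myeloid markers above that percentile, and MOLM-13 had 8 of 9.

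Some arrays stood apart in RNA quality or in markers of other cells. The actin 3′ minus 5′ signal, which grows when RNA is shortened, was 3.11 and 3.65 on REH DMSO replicates 1 and 3, and 1.12 and 1.99 on mouse combination replicates 2 and 3. In SEM it was lower on the MI-2-2 and combination arrays, from 1.83, than on the DMSO and EPZ004777 arrays, up to 2.48. The summed level of 9 myeloid markers (log2) went from 9.29 to 9.36 with DMSO to 12.15 to 12.25 with the combination in SEM, from 15.13 to 15.16 to 15.83 to 15.88 in MOLM-13, and from 14.42 to 14.94 to 15.86 to 15.96 in the mouse cells. In REH these markers overlapped between DMSO (10.91 to 11.43) and the combination (11.06 to 11.32). The summed fibroblast markers went from between 6.77 and 6.91 to between 11 and 11.72 in the mouse cells, where 1 of 5, Col1a1, was above percentile 40 on the combination arrays. They went from between 6.38 and 6.77 to between 9.19 and 9.22 in SEM, where 1 of 5, COL1A1, was. The summed T cell markers went from between 6.66 and 6.81 to between 8.69 and 9.09 in RS4;11 and from between 6.45 and 6.51 to between 7.79 and 8.08 in SEM, where 1 of 6, CD28, was above that percentile in either line and CD3D, CD3E and CD3G were not. They went from between 9.38 and 9.7 to between 11.17 and 11.39 in MOLM-13, where CD3D alone was above it, and from between 8.5 and 8.91 to between 10.12 and 11.1 in the mouse cells, where Cd3d, Cd2 and Cd28 were. In RS4;11 the myeloid sum went from between 9.4 and 9.49 to between 10.27 and 10.36, with 5 of 9 above percentile 40. The part of cell composition in the results below was not tested.

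In DMSO-treated cells, CCND2, CCNE1 and CCNE2 separated the lymphoid lines. CCND2 encodes the D-type cyclin typical of many blood cells. It lay at 4.62 and 4.48 on the SEM arrays, at 5.46 and 5.59 on those of RS4;11, and at 8.80, 9.17 and 8.79 on those of REH. No arrays overlapped between these lines, and RS4;11 differed from REH by -3.395 (adjusted p = 1.3e-08). The SEM arrays lay under percentile 40 (4.89), so that only bounds are given against them, with that level in their place: CCND2 was at least 16.4-fold higher in REH and at least 1.55-fold higher in RS4;11 than in SEM. CCNE1 followed the same order, with means of 8.85 in SEM, 10.58 in RS4;11 and 11.15 in REH. CCNE2 was lowest in SEM too, at 8.91, but RS4;11 (10.34) exceeded REH (10.03), by 0.31 ± 0.10 (adjusted p = 0.0292). The differences of CCNE1 and CCNE2 between the 3 lines passed the test. That of CCNE2 between RS4;11 and REH was lost with either DMSO array of RS4;11 left out (adjusted p = 0.145 and 0.11), with averaged probe sets (0.16, adjusted p = 0.553), with the actin covariate (0.19, adjusted p = 0.357) and with the replicate block (adjusted p = 0.0636). With the probe sets of each gene averaged, CCND2 in RS4;11 stood 0.43 above SEM, which was not called (adjusted p = 0.0592). Only 1 of the 4 CCND2 probe sets in this mean passed the filter in these lines. Of the 8 human genes, 3 differed between RS4;11 and SEM, 6 between RS4;11 and REH and 5 between SEM and REH, where the shares over all genes were 22.4%, 44.7% and 45.6%. Of the 6, CCND1 lay under percentile 40 in both lines and passed the filter only through the MOLM-13 arrays, which share this fit. Its call was lost without MOLM-13 replicate 1 (adjusted p = 0.0588) or 3 (0.0544), and no difference is read from it. The counts with SEM include CCND2, which lay under percentile 40 there.

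CDKN1B was higher in RS4;11 by 0.48 ± 0.10 and in SEM by 0.63 ± 0.10 than in REH, with the 2 arrays of either line above all 3 of REH. CDK4 exceeded REH by 0.42 ± 0.14 in RS4;11 and by 0.37 ± 0.14 in SEM. The SEM call was lost when any of several single arrays was left out (adjusted p up to 0.275), among them MOLM-13 arrays, which share this fit. The RS4;11 call was lost without RS4;11 replicate 2 (adjusted p = 0.0854) or 3 (0.155), without REH replicate 1 (0.0583) or 2 (0.0631), and with the replicate block (0.0689). CCND3, with 1 REH array at 12.92 and the others at 12.14 and 12.27, differed in no pair on its brightest probe set. With its probe sets averaged it stood at -0.4 in RS4;11 and -0.35 in SEM against REH, and both were called (adjusted p = 0.00382 and 0.00734). The MOLM-13 arrays have another distribution of values, so that this line is set beside the others only by percentile of the array. There CCND2 lay at percentile 98.9 to 99.1 in MOLM-13 and 78.3 to 81.3 in REH, and CCND1 at 59.6 to 61.1 and 20.6 to 26.2. In the mouse cells Ccnd2 spread widely without treatment, at 9.71, 7.95 and 7.79.

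**Figure D1:**
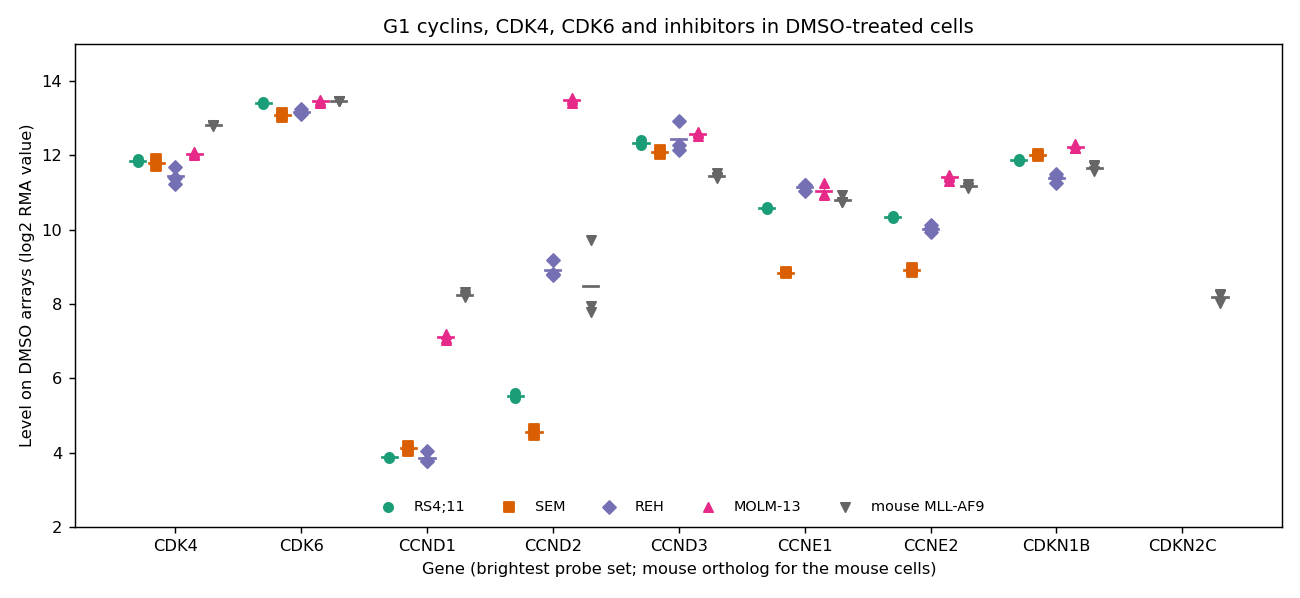
Levels (log2 RMA values, y axis) of the 9 genes (x axis) on the DMSO arrays of the 5 cell models, 1 point per array and a bar at the group mean. CCND2 and CCNE1 lie lowest in SEM among RS4;11, SEM and REH, and mouse Ccnd2 has 1 array at 9.71 apart from 7.95 and 7.79. The MOLM-13 arrays have another distribution of values, so that their levels are not ranked with those of the other lines.

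The brightest CDK6 probe set showed no called difference between the lines without treatment, at means of 13.41 in RS4;11, 13.10 in SEM and 13.18 in REH. Some other CDK6 probe sets gave another picture: 243000_at stood at 10.81 and 10.58 in RS4;11 and SEM and at 8.72 in REH, and 235287_at at 9.23, 9.15 and 7.18. Likewise 207143_at stood at 9.49, 8.79 and 7.46. The remaining probe sets stood less far above REH. For RS4;11 and SEM these differences were 0.61 and 0.09 on 224848_at, 0.59 and 0.51 on 224851_at, and 0.52 and 0.66 on 231198_at. When all 7 CDK6 probe sets were averaged, the difference of SEM from REH turned from -0.08 to 0.91 (adjusted p = 4.58e-05). Which of these probe sets follows the CDK6 coding transcript was not tested.

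Over the 15 comparisons of a treatment with DMSO, 117 tests of the genes were made and 43 were called, 20 up and 23 down. CDK6 was called in 8 comparisons, down in all 8. CCND2 was called up in 5 and down in 2, CCNE2 up in 5 and down in 1, and CCNE1 up in 4. CCND1 was called up in 2 and down in 3, CDKN1B up in 1 and down in 4, CCND3 up in 2 and down in 1, and CDK4 down in 3. Mouse Cdkn2c was called down in 1 and up in 1 of its 3 comparisons. Of the 43 calls, 24 stayed calls in the same direction under each alternative in which the gene was tested. The other 19 changed under at least 1, among them all calls in RS4;11 and SEM. The 24 include CCND1 in REH with the combination, which did not pass the filter when its probe sets were averaged. In 4 of the 43 every DMSO array lay under percentile 40, namely CCND1 in REH and CCND2 in SEM, each with EPZ004777 and with the combination. These genes passed the filter only through treated arrays, so these calls follow in part from the filter and are given as a description.

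Counts of called genes have to be read against how much of the transcriptome was called. In RS4;11, 0 of 7 genes passed with EPZ004777 and 0 of 7 with MI-2-2, where 6.63% and 12.6% of all genes did (3021 and 3684 genes at an unadjusted p under 0.05), and 4 of 7 with the combination (23.5%). In SEM it was 2 of 7 with EPZ004777 (8.78%), 3 with MI-2-2 (17.8%) and 5 after both compounds (29.6%). In REH, where few genes responded, 2 of 8 passed with EPZ004777 (4.11%), 1 with MI-2-2 (1.34%) and 2 after both compounds (7.49%). In MOLM-13 it was 5 of 8 with EPZ004777 (27.7%), 2 with MI-2-2 (18.5%) and 8 after both compounds (48.9%). In the mouse cells it was 0 of 9 with EPZ004777 (5.6%, 1912 genes at an unadjusted p under 0.05), 2 with MI-2-2 (5.26%) and 7 after both compounds (64.7%). The calls in REH were all on CCND1 and CCND2. For CCND1 they follow in part from the filter, as above. The median change with the combination was -0.32 over the 8 genes against 0.0027 over all genes in MOLM-13, and -0.38 against -0.10 in the mouse cells.

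**Figure D2:**
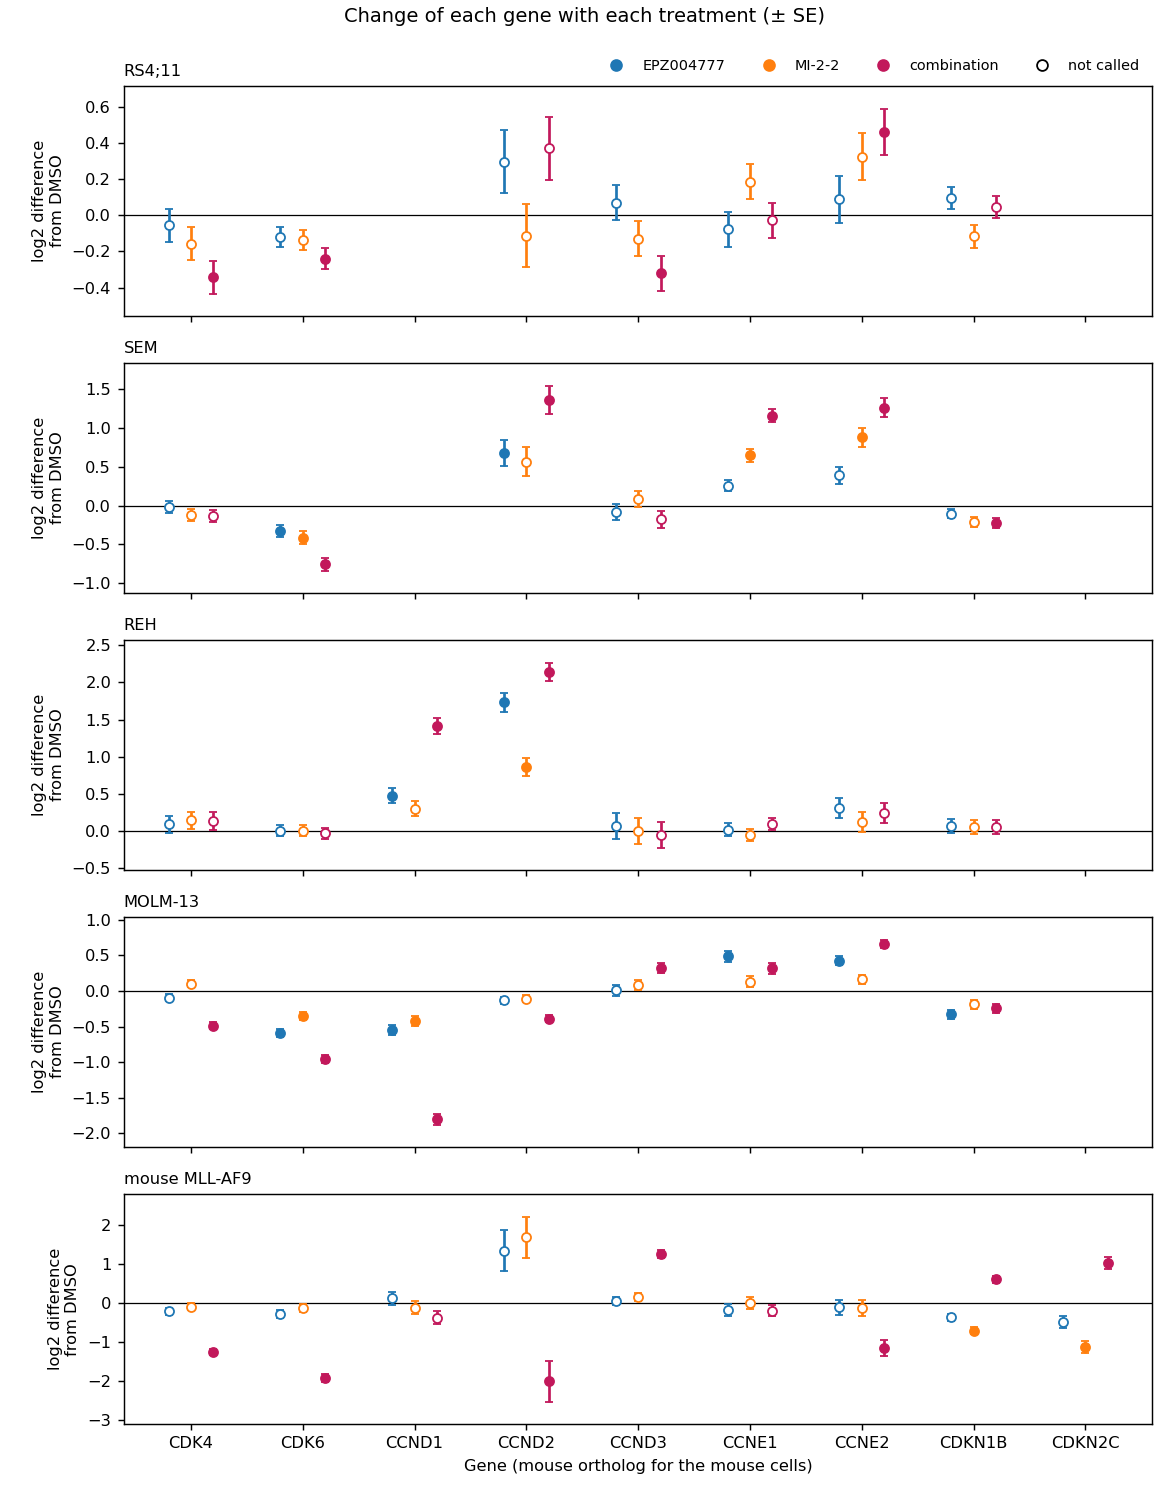
Change of each gene from DMSO (log2 units, y axis, ± SE from limma) with EPZ004777, MI-2-2 and the combination in the 5 cell models, with filled points for called changes. CDK6 lies below 0 with every treatment in RS4;11, SEM, MOLM-13 and the mouse cells, and CCND2 above 0 in SEM and REH; genes without a point were not tested.

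CDK6, the G1 kinase, fell with the combination in the 4 models with a KMT2A fusion and was not called in REH. In SEM its brightest probe set read 13.05 and 13.15 with DMSO, 12.78, 12.81 and 12.72 with EPZ004777, 12.77 and 12.60 with MI-2-2, and 12.36 and 12.32 with the combination. Every treated array lay below both DMSO arrays, and the combination arrays below all others. The fall was 0.76 ± 0.08 with the combination (1.69-fold lower, adjusted p = 0.000357), 0.33 ± 0.07 with EPZ004777 (adjusted p = 0.0339) and 0.41 ± 0.08 with MI-2-2 (adjusted p = 0.0114). The call with EPZ004777 was lost without either DMSO array (adjusted p = 0.115 and 0.199) or without replicate 2 (0.0609) or 3 (0.105) of that treatment, and the call with MI-2-2 without DMSO replicate 3 (0.0856) or MI-2-2 replicate 3 (0.0652). With the actin value as a covariate, which in SEM runs with the groups, no SEM call against DMSO was kept, and CDK6 with the combination stood at -1.04 (adjusted p = 0.632).

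In MOLM-13 the brightest CDK6 probe set was 224851_at, and in the other human lines it was 224847_at, so that the sizes above and below are not ranked. With the combination, 224847_at changed by -0.86 in MOLM-13 and -0.76 in SEM, and 224851_at by -0.96 and -0.98. The MOLM-13 values were 13.41, 13.45 and 13.50 with DMSO, 12.87, 12.82 and 12.90 with EPZ004777, 13.19, 13.12 and 12.99 with MI-2-2, and 12.57, 12.48 and 12.45 with the combination. The 4 groups did not overlap. CDK6 fell by 0.59 ± 0.06, 0.36 ± 0.06 and 0.96 ± 0.06 in that order (adjusted p = 3.27e-05, 0.00175 and 2.45e-07). In the mouse cells Cdk6 read 13.48, 13.45 and 13.46 with DMSO and 11.33, 11.61 and 11.69 with the combination. That fall, of 1.92 ± 0.10 (3.78-fold lower, adjusted p = 6.2e-08), came with single-compound values of -0.27 ± 0.10 for EPZ004777 and -0.14 ± 0.10 for MI-2-2 that were not called. That with EPZ004777 was called without combination replicate 1 (adjusted p = 0.0117) or without both doubtful combination arrays (0.0114). Without both combination arrays of doubtful RNA quality the change with the combination was -2.14, on the 1 array left.

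In RS4;11 the change of the brightest probe set was small: 13.40 and 13.43 with DMSO against 13.20, 13.17 and 13.14 with the combination, a fall of 0.24 ± 0.06 (adjusted p = 0.0103) that was not called without DMSO replicate 3 (-0.22, adjusted p = 0.0836). Its other probe sets moved more. Tested each on its own, 6 of 7 CDK6 probe sets fell with the combination, from -1.51 to -0.24, 3 fell with EPZ004777 (the 7 from -1.01 to -0.11) and 4 with MI-2-2 (from -1.17 to -0.14). In SEM 7 of 7 fell with the combination (-2.83 to -0.65), in MOLM-13 6 of 7 (-1.76 to -0.32), and in the mouse cells 3 of 3 (-1.92 and -2.85 for a pair of them), while in REH 0 of 7 were called (-0.21 to 0.14). The other mouse probe set, 1460291_at, read 10.44, 9.60 and 9.77 with DMSO and 6.81, 3.99 and 2.63 with the combination, the lowest on the 2 arrays with the raised actin value. Those 2 arrays lay under percentile 40, and with that level in their place the fall was at least 16.7-fold. The size of the CDK6 change in a model therefore depended on the probe set, and its direction in the 4 models with a fusion did not for the combination.

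**Figure D3:**
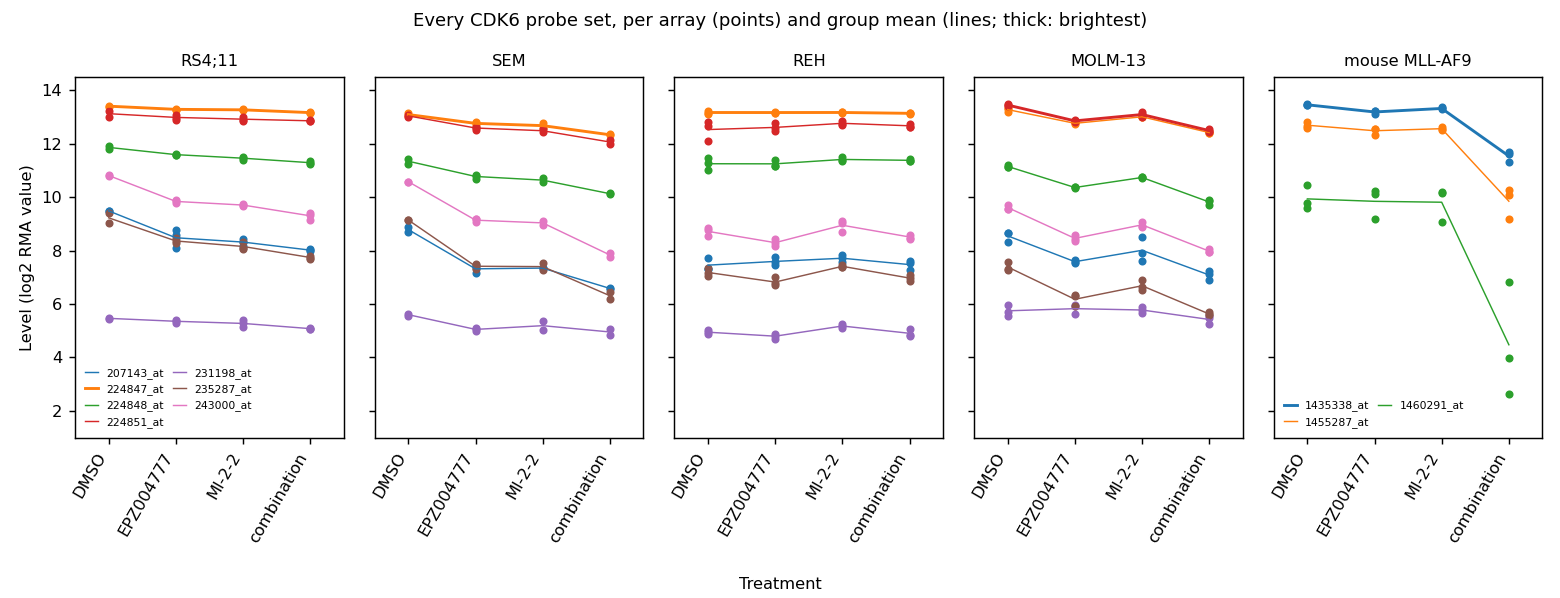
Level (log2 RMA value, y axis) of each CDK6 probe set by treatment (x axis) in the 5 cell models, with points for arrays, lines through group means and a thick line for the brightest probe set. Lines slope down to the combination in RS4;11, SEM, MOLM-13 and the mouse cells, with changes from -2.83 to -0.65 in SEM, and run nearly level in REH.

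Read probe set by probe set, 10 of 14 human probe sets of the genes that passed the filter were called with the combination in RS4;11, where 21% of all probe sets were, 3 of 14 with EPZ004777 (4.85%) and 4 of 14 with MI-2-2 (11.1%). With the combination it was 12 of 14 in SEM (26.5%), 4 of 17 in REH (4.83%), 17 of 18 in MOLM-13 (45.2%) and 21 of 25 in the mouse cells (63.7%). Probe sets of 1 gene share their target and are not replicates.

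CDK4, which partners the same cyclins as CDK6, fell with the combination in 3 models and was not called with either compound alone in any. The mouse value with EPZ004777 (-0.21) was called without combination replicate 1 (adjusted p = 0.0177) or without both doubtful combination arrays (0.0176). In MOLM-13 it read 12.09, 12.001 and 12.03 with DMSO and 11.52, 11.61 and 11.53 with the combination, a fall of 0.49 ± 0.05 (adjusted p = 1.11e-05). Mouse Cdk4 read 12.79, 12.82 and 12.83 with DMSO and 11.42, 11.63 and 11.63 with the combination, a fall of 1.25 ± 0.08 (2.39-fold lower, adjusted p = 3.11e-07). Neither pair of groups overlapped, and 3 of 3 mouse Cdk4 probe sets fell, by 1.25 to 1.94. In RS4;11 the fall was 0.34 ± 0.09 (adjusted p = 0.0192), and it was no longer called without DMSO replicate 2 (adjusted p = 0.0562) or 3 (0.141) or combination replicate 1 (0.0612). CDK4 stood at -0.13 ± 0.08 in SEM and 0.13 ± 0.12 in REH with the combination, neither called.

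The D-type cyclins moved in different directions in different models. CCND2 rose in REH, the line without a fusion: from 8.80, 9.17 and 8.79 with DMSO to 10.62, 10.62 and 10.72 with EPZ004777, 9.93, 9.61 and 9.82 with MI-2-2, and 11.13, 11.16 and 10.91 with the combination. The 4 groups did not overlap and stood in the order DMSO, MI-2-2, EPZ004777, combination. The rises were 1.73 ± 0.12 (3.32-fold), 0.87 ± 0.12 (1.82-fold) and 2.14 ± 0.12 (4.42-fold) for EPZ004777, MI-2-2 and the combination, with adjusted p = 8.88e-06, 0.0102 and 1.06e-06. Without the 2 REH DMSO arrays of doubtful quality the first and the last were 1.48 and 1.89 and still called, and that with MI-2-2 was 0.61 and not called (adjusted p = 0.143), as it was not without MI-2-2 replicate 1 (0.0583) or 3 (0.0576). All 3 CCND2 probe sets that passed the filter in REH rose with the combination, by 0.85 to 2.60.

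In SEM, CCND2 started from the lower part of the array (percentile 33.2 to 35.7) and read 4.62 and 4.48 with DMSO, 4.90, 5.51 and 5.29 with EPZ004777, 5.003 and 5.23 with MI-2-2, and 5.85 and 5.99 with the combination. Every treated array lay above both DMSO arrays. As the DMSO arrays lay under percentile 40 and the gene passed the filter through treated arrays, only bounds are given, with that level in their place: CCND2 was at least 2.04-fold higher with the combination and at least 1.27-fold higher with EPZ004777. Another CCND2 probe set, 200951_s_at, did not pass the filter and read 4.69 and 4.81 with DMSO and 4.59 and 4.57 with the combination. In RS4;11 the change with the combination was 0.37 ± 0.17 and not called. CCND2 fell in MOLM-13, where it is among the brightest signals: 13.49, 13.42 and 13.55 with DMSO against 13.10, 13.07 and 13.13 with the combination, a fall of 0.39 ± 0.05 (adjusted p = 8.28e-05), with 4 of 4 probe sets down by 0.39 to 1.06. Signals near the top of the scale may be compressed on arrays, and the part of this in the size of the MOLM-13 change was not tested.

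Mouse Ccnd2 went to opposite sides of DMSO with the single compounds and the combination. It read 9.71, 7.95 and 7.79 with DMSO, 9.53, 9.29 and 10.67 with EPZ004777, 10.15, 10.12 and 10.26 with MI-2-2, and 7.29, 6.09 and 6.07 with the combination. The combination arrays lay below all others, and the fall of 2.00 ± 0.53 from DMSO (adjusted p = 0.00647) was no longer called without both doubtful combination arrays (-1.19, adjusted p = 0.189). The values of 1.34 ± 0.53 with EPZ004777 and 1.69 ± 0.53 with MI-2-2 were not called (adjusted p = 0.24 and 0.115), and without DMSO replicate 1 they became 1.96 and 2.31 and were (0.0319 and 0.0135). All 7 Ccnd2 probe sets fell with the combination, by 0.99 to 2.51.

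CCND1, the D-type cyclin with low signal in most of these cells, fell in MOLM-13 and read highest with the combination in REH. In REH it read 3.78, 4.05 and 3.76 with DMSO, 4.28, 4.23 and 4.50 with EPZ004777, 4.17, 4.13 and 4.19 with MI-2-2, and 5.15, 5.33 and 5.35 with the combination. The combination arrays stood apart from all others, at percentile 44 to 46.8 of the array, while every other REH array lay under percentile 40. The gene passed the filter through the combination arrays alone, so that no test is given: with that level in place of the DMSO values, CCND1 was at least 1.33-fold higher with the combination. The EPZ004777 and DMSO arrays were all under that level, and no fold is given between them. In MOLM-13 it read 7.08, 7.20 and 7.02 with DMSO, 6.57, 6.58 and 6.49 with EPZ004777, 6.64, 6.62 and 6.78 with MI-2-2, and 5.16, 5.34 and 5.39 with the combination. Every treated array lay below every DMSO array, and the falls were 0.55 ± 0.07 with EPZ004777 and 0.42 ± 0.07 with MI-2-2. The combination arrays lay under percentile 40 (5.5), and CCND1 was there at least 3.03-fold lower than with DMSO (adjusted p = 1.03e-08). Mouse Ccnd1 stood at -0.38 ± 0.17 with the combination, on arrays that spread from 7.42 to 8.23, and was not called (adjusted p = 0.0697), but it was without combination replicate 1 (-0.55, adjusted p = 0.00375).

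CCND3 was the only D-type cyclin that rose in the mouse cells with the combination, from 11.41, 11.52 and 11.40 with DMSO to 12.75, 12.59 and 12.76. The rise was 1.26 ± 0.10 (2.39-fold, adjusted p = 1.39e-06), with 3 of 3 Ccnd3 probe sets up by 1.26 to 2.21, while Cdk6 and Ccnd2 fell on the same arrays. In MOLM-13 it rose by 0.33 ± 0.07 (adjusted p = 0.00329), with DMSO arrays at 12.61, 12.52 and 12.63 and combination arrays at 12.87, 12.90 and 12.96. The fall of 0.32 ± 0.10 in RS4;11 (adjusted p = 0.0354) turned to 0.18 (adjusted p = 0.137) when its probe sets were averaged, and was lost without either DMSO array (adjusted p = 0.0607 and 0.241) or without combination replicate 1 or 2 or EPZ004777 replicate 2 (0.0784, 0.0935 and 0.0521).

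**Figure D4:**
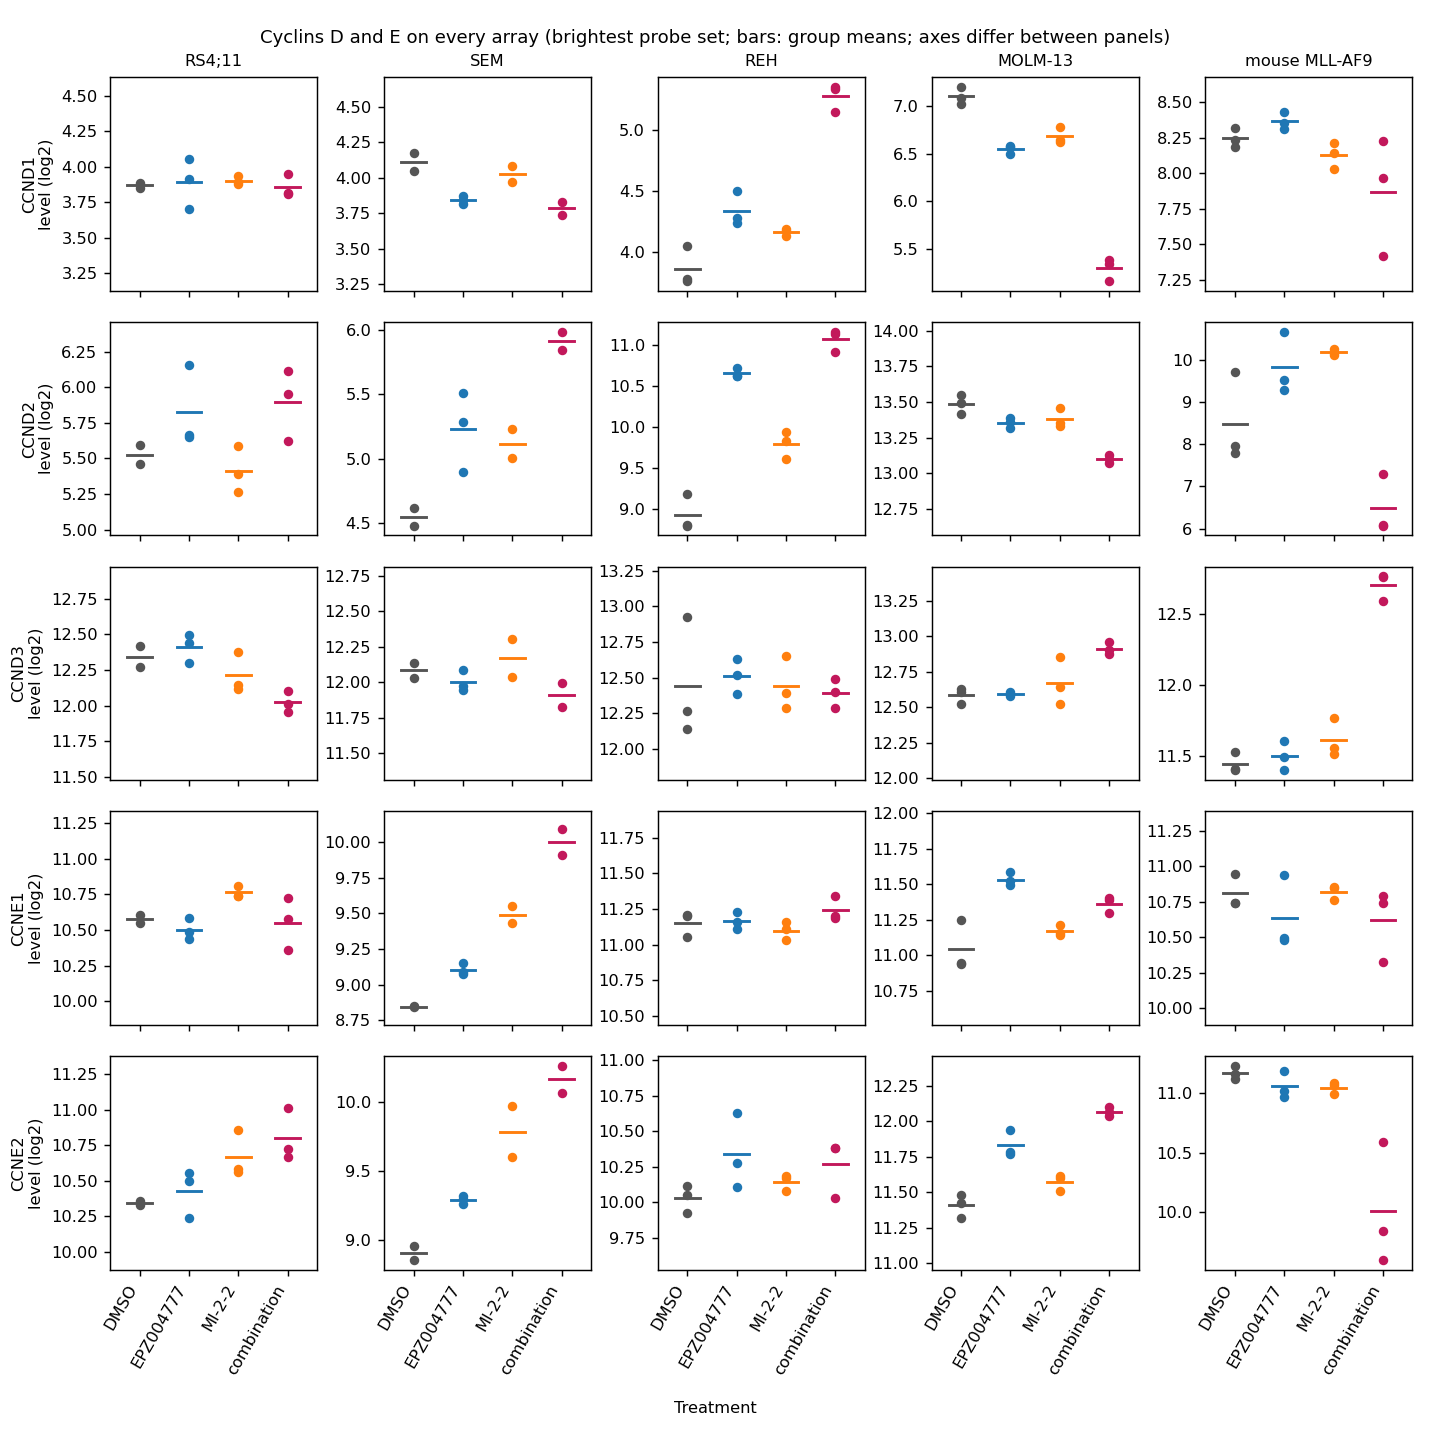
Level (log2 RMA value, y axes of different range) of the D-type and E-type cyclins on every array by treatment (x axis), 1 row per gene and 1 column per cell model, with bars at group means. CCND2 climbs in REH from about 8.92 to 11.07 on average, CCND1 drops in MOLM-13 from 7.10 to 5.30, and the E-type cyclins climb in SEM.

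The E-type cyclins, partners of CDK2, rose in SEM and MOLM-13. In SEM, CCNE1 read 8.84 and 8.85 with DMSO, 9.15, 9.07 and 9.09 with EPZ004777, 9.55 and 9.43 with MI-2-2, and 10.09 and 9.91 with the combination. CCNE2 read 8.96 and 8.86, then 9.30, 9.26 and 9.32, then 9.97 and 9.60, and then 10.07 and 10.27 in the same order of groups. For both genes the 4 groups were in that order without overlap. CCNE1 rose by 0.65 ± 0.08 with MI-2-2 and by 1.16 ± 0.08 with the combination (2.23-fold, adjusted p = 4.25e-05), and CCNE2 by 0.88 ± 0.12 and 1.26 ± 0.12 (2.4-fold, adjusted p = 0.000218). With EPZ004777 alone the values of 0.26 ± 0.08 and 0.39 ± 0.11 were not called. The CCNE2 value was called with averaged probe sets (0.43, adjusted p = 0.0314), with array weights (0.4, adjusted p = 0.0254), in the shared human fit (0.0436) and without MI-2-2 replicate 1 (0.0339) or 3 (0.0338), and that of CCNE1 with array weights (0.25, adjusted p = 0.0329). The SEM values with the actin covariate, which runs with the groups, were 0.70 for CCNE1 and 1.16 for CCNE2 with the combination (adjusted p = 0.793 and 0.784).

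In MOLM-13 CCNE2 read 11.32, 11.43 and 11.48 with DMSO and 12.04, 12.07 and 12.10 with the combination, a rise of 0.66 ± 0.06 (adjusted p = 6.87e-06), and it rose by 0.42 ± 0.06 with EPZ004777. CCNE1 rose more with EPZ004777 than with the combination on the mean, by 0.49 ± 0.08 and 0.32 ± 0.08, a difference of -0.17 ± 0.08 that was not called (adjusted p = 0.116, and 0.0205 without DMSO replicate 2). The CCNE1 call with the combination was lost with the actin covariate (adjusted p = 0.0672). In RS4;11 CCNE2 rose by 0.46 ± 0.13 (adjusted p = 0.0256), from 10.36 and 10.33 to 10.73, 11.01 and 10.67, and the call was lost without either DMSO array (adjusted p = 0.0959 and 0.13) or combination replicate 2 (0.0727). In REH neither E-type cyclin was called with any treatment.

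Mouse Ccne2 went the other way. It fell by 1.15 ± 0.20 with the combination (2.22-fold lower, adjusted p = 0.000469), from 11.22, 11.12 and 11.16 to 10.59, 9.61 and 9.85, with the lowest values on the 2 arrays of doubtful RNA quality, and by 0.58 without them (adjusted p = 0.000824). Ccne1 stood at -0.19 ± 0.15, not called, and was called without combination replicate 2 (-0.48), without replicate 3 (-0.49) or without both (-0.60, adjusted p = 0.0181). No fit compared the mouse cells with MOLM-13, so that the difference of Ccne2 between them was not tested.

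The inhibitor Cdkn2c was measured in the mouse cells alone and moved in opposite directions with MI-2-2 and with the combination. It read 8.03, 8.25 and 8.27 with DMSO, 7.77, 7.94 and 7.37 with EPZ004777, 7.06, 6.88 and 7.20 with MI-2-2, and 9.36, 9.07 and 9.21 with the combination. MI-2-2 arrays lay below and combination arrays above all others, as a fall of 1.13 ± 0.15 (2.2-fold lower, adjusted p = 0.00128) and a rise of 1.03 ± 0.15 (2.04-fold, adjusted p = 0.000149). Cdkn1b, which encodes the inhibitor of cyclin E-CDK2, did the same. It read 11.57, 11.70 and 11.74 with DMSO, 10.92, 10.88 and 11.09 with MI-2-2, and 12.33, 12.26 and 12.24 with the combination, a fall of 0.71 ± 0.09 and a rise of 0.61 ± 0.09 (adjusted p = 0.00124 and 0.000221). With EPZ004777 the values of -0.49 ± 0.15 for Cdkn2c and -0.36 ± 0.09 for Cdkn1b were not called (adjusted p = 0.113 and 0.0536). That of Cdkn1b was called with the actin covariate (-0.37, adjusted p = 0.027) and without combination replicate 1 (0.0154). All 4 called changes of these inhibitors kept their call under each alternative that was run in the mouse cells.

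Human CDKN1B changed little. In MOLM-13 EPZ004777 gave a change of -0.33 ± 0.06 (adjusted p = 0.00264) and the combination one of -0.24 ± 0.06 (adjusted p = 0.00683, and 0.07 with the actin covariate), from DMSO arrays at 12.19, 12.20 and 12.30 to 11.92, 12.02 and 12.01. In SEM it fell by 0.23 ± 0.06 with the combination (adjusted p = 0.0301), a call that was lost without either DMSO array (0.0786 and 0.158), either combination array (0.139 and 0.0653) or EPZ004777 replicate 3 (0.0544). In RS4;11 and REH it stood at 0.05 ± 0.06 and 0.06 ± 0.09 with the combination.

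Against a single compound, the combination gave further changes in most models. In RS4;11, 3 of 7 genes differed from EPZ004777 (19.5% of all genes), namely CDK4 at -0.29, CCND3 at -0.39 and CCNE2 at 0.37, and 0 of 7 from MI-2-2 (10.8%, with 3337 genes at an unadjusted p under 0.05). Of these 3, CCND3 kept its call when any 1 array was left out, and CDK4 and CCNE2 lost theirs without several single arrays (adjusted p up to 0.112 and 0.166). In SEM, 4 differed from EPZ004777 (26.7%) and 2 from MI-2-2 (4.81%): CCND2 by 0.68 and 0.80, CCNE1 by 0.90 and 0.51, and CCNE2 and CDK6 only from EPZ004777, by 0.87 and -0.43. CDK6 stood at -0.34 ± 0.08 against MI-2-2 (adjusted p = 0.057). CCND2 passed the filter in SEM through treated arrays alone, so that its place in both counts follows in part from the filter. Of the 3 EPZ004777 arrays 1 lay under percentile 40. With that level in its place CCND2 was at least 1.6-fold higher with the combination than with EPZ004777. The CCND2 call against EPZ004777 was lost without combination replicate 1 (adjusted p = 0.0608) or 3 (0.118) and with the actin covariate (0.30, adjusted p = 0.934). That against MI-2-2 (adjusted p = 0.0499) was lost without any 1 of several arrays, with adjusted p up to 0.201, and that of CCNE1 without combination replicate 1 (0.0867) or MI-2-2 replicate 3 (0.0945). In REH, 1 of 8 differed from EPZ004777 (0.172%) and 2 from MI-2-2 (2.01%). The gene in both counts was CCND1, whose single-compound arrays were all under percentile 40, so that no test is given: with that level in their place it was at least 1.33-fold above EPZ004777 and at least 1.32-fold above MI-2-2. CCND2 exceeded MI-2-2 by 1.28 ± 0.12 and stood 0.41 ± 0.12 above EPZ004777, which was not called.

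In MOLM-13, 6 of 8 differed from EPZ004777 (33%) and the same number from MI-2-2 (39.2%). CCND1, under percentile 40 with the combination, was at least 2.06-fold lower than with EPZ004777 and at least 2.26-fold lower than with MI-2-2 (adjusted p = 1.18e-06 and 2.55e-07). CDK4 differed by -0.40 and -0.59 and CDK6 by -0.36 and -0.60. CDKN1B and CCNE1 did not differ from either compound at the threshold. In the mouse cells, 8 of 9 differed from EPZ004777 (63.5%) and 7 from MI-2-2 (62.6%). The mouse changes were large, with Ccnd2 at -3.34 and -3.69, Cdkn2c at 1.52 and 2.16, and Cdk6 at -1.65 and -1.78, on a background where most genes differed. Ccnd1 differed from EPZ004777 only, by -0.50, and not without both doubtful combination arrays (-0.14, adjusted p = 0.234).

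REH received the same doses for the same time as RS4;11 and SEM, so that the mean effect in the 2 lines with KMT2A-AFF1 could be tested against that in REH. With the combination 5 of 7 genes differed (20.7% of all genes), with MI-2-2 3 (13.6%) and with EPZ004777 1 (5.25%). CCND2 differed with each treatment, by -1.24 ± 0.19, -0.64 ± 0.20 and -1.28 ± 0.20 for EPZ004777, MI-2-2 and the combination. The SEM values enter with DMSO arrays under percentile 40, so that the rise there may be understated. CDK6 differed by -0.28 ± 0.07 with MI-2-2 and by -0.47 ± 0.07 with the combination (adjusted p = 0.00949 and 2.43e-05). With EPZ004777 it stood at -0.22, which was not called. That value was called with averaged probe sets (-0.61, adjusted p = 4.19e-05), with array weights (0.0483), in the shared human fit (0.0292) and without REH DMSO replicate 3 (-0.26, adjusted p = 0.019). CCNE1 differed by 0.47 ± 0.10 with MI-2-2 and by 0.47 ± 0.10 with the combination, and neither was called when its probe sets were averaged (0.18 and 0.24). CCNE2 differed by 0.62 ± 0.16 with the combination (adjusted p = 0.0079). The CDK4 difference of -0.37 ± 0.12 with the combination (adjusted p = 0.0319) was lost without any 1 of 8 arrays (adjusted p up to 0.115), and that of CCND2 with MI-2-2 without any 1 of 8 arrays (adjusted p from 0.0538 to 0.0983). The latter was also lost with the replicate block (-0.54, adjusted p = 0.107), with array weights (-0.52, adjusted p = 0.144) and without the 2 doubtful REH DMSO arrays (-0.39, adjusted p = 0.428). Without those arrays the CCNE1 difference with MI-2-2 was not called either (0.37, adjusted p = 0.076). These 3 comparisons share their DMSO arrays, and the lines differ in more than the fusion.

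Of the other genes of the pathway 50, or 48 in RS4;11 and REH, passed the filter: other CDK inhibitors, pocket proteins with E2F factors, CDK2 with its activators and CDC25 phosphatases, the SCF ubiquitin ligase that degrades G1 regulators, and genes of S phase entry. With the combination, 1 rose and 12 fell in RS4;11, 11 and 5 in SEM, 1 and 3 in REH, 21 and 8 in MOLM-13, and 10 and 25 in the mouse cells. These are 27.1%, 32%, 8.33%, 58% and 70% of the list, near the shares over all genes of 23.5%, 29.6%, 7.49%, 48.9% and 64.7%. Of the 15 S phase entry genes, 0 rose and 4 fell in RS4;11, 4 rose and 1 fell in SEM, 0 and 0 in REH, 11 and 2 in MOLM-13, and 0 and 10 in the mouse cells. In MOLM-13 the called share of the 15 was 86.7%, and for the mouse genes it was 66.7%. Their median change was 0.23 in MOLM-13 and -0.38 in the mouse culture, against 0.0027 and -0.10 over all genes. In MOLM-13, 12 of the 15 rose and 0 fell with EPZ004777 alone, where 27.7% of all genes were called. With MI-2-2 0 rose and 2 fell, where 18.5% of all genes were called, and nothing is read from these 2.

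**Figure D5:**
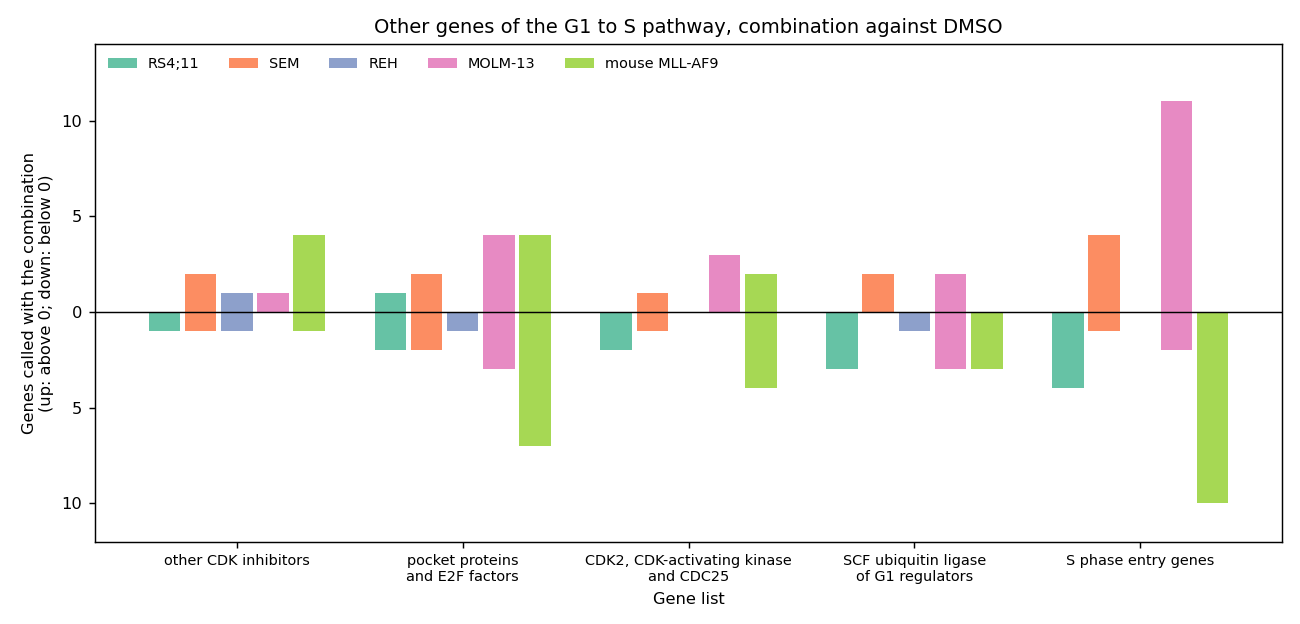
Number of genes of 5 pathway lists (x axis) called with the combination against DMSO in each cell model (y axis, up above 0 and down below 0). The S phase entry genes stand at 11 up and 2 down in MOLM-13 and at 0 up and 10 down in the mouse cells.

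In RS4;11 the largest rise was TFDP2 (0.57 ± 0.06), a partner of E2F factors, and the largest falls were TK1 (-0.58 ± 0.16), the thymidine kinase made in S phase, and CDKN1A (-0.55 ± 0.08), a Cip/Kip inhibitor. In SEM CDKN3 (0.61 ± 0.08) and E2F8 (0.53 ± 0.09), a repressor of the E2F family, rose, and E2F5 (-0.89 ± 0.15) and the replication licensing factor CDT1 (-0.525 ± 0.11) fell. In REH CDKN1C rose by 0.81 ± 0.10 and CDKN1A and E2F5 fell by 0.64 ± 0.10 and 0.45 ± 0.09. In MOLM-13 E2F8 (1.385 ± 0.11) and TK1 (0.945 ± 0.10) rose, so that TK1 went up there and down in RS4;11, and FBXO31 (-0.75 ± 0.09), an F-box protein that targets cyclin D1, and E2F5 (-0.61 ± 0.09) fell. In the mouse cells Cdkn1c (2.08 ± 0.17) and E2f2 (1.71 ± 0.12) rose, and Mnat1 (-2.12 ± 0.31), a part of the CDK-activating kinase, and E2f6 (-1.78 ± 0.18) fell.

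Among these lists 8 genes were called in the same direction with the combination in at least 3 models. With 48.9% and 64.7% of all genes called in MOLM-13 and the mouse cells, and no such count made over all genes, nothing is read from this number. E2F5 fell in SEM, REH, MOLM-13 and the mouse cells (-1.74 ± 0.23 there), and E2F6 and MCM6 in RS4;11, MOLM-13 and the mouse cells. FBXO4 fell in RS4;11, REH and MOLM-13. E2F8 and CDC25B, a phosphatase that activates CDKs, rose in SEM, MOLM-13 and the mouse cells. CDKN1A fell in RS4;11, REH and the mouse cells (-0.83 ± 0.16) but rose in SEM (0.45 ± 0.11), and TFDP2 fell in SEM, MOLM-13 and the mouse cells but rose in RS4;11.

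Likeness to CDK6, CCND2 and CCNE2, the 3 genes with the most calls, was measured over the 44 human arrays as Pearson r after each line's DMSO mean was subtracted, among 15852 genes. The genes most like CDK6 were HOMER1 (r = 0.937), BCL2 (0.908) and ZCCHC7 (0.901), those most like CCND2 were TLE3 (0.919), LINC02273 (0.891) and MAMLD1 (0.891), and those most like CCNE2 were ELK3 (0.889), CD52 (0.884) and TRAF3IP3 (0.87). Among the 8 genes themselves CCNE1 and CCNE2 had r = 0.782, and CDK6 had r = -0.749 with CCNE2 and 0.759 with CDKN1B. CCND2 and CDK6 had r = 0.228. Arrays of 1 line and treatment are not independent of each other, and these values describe the 44 arrays only.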

How the data were processed

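RNA from cells treated with DMSO, EPZ004777, MI-2-2 or both was hybridised to human or mouse Affymetrix expression arrays, from 50 ng of total RNA amplified with the Nugen Ovation kit, per the labels' protocols. The authors deposited log2 values per probe set, made by RMA with affy in R 3.0.2, per the submitters' processing notes; whether all arrays were normalized together is not given in the sources used here. The 95th percentile was 12.147 to 12.171 on MOLM-13 arrays and 11.282 to 11.334 on those of the other human lines, so 3 of 6 planned DMSO comparisons, those with MOLM-13, were not made. Probe sets were named from the platform annotation (human: 41097 with 1 symbol, 1801 with several, 11777 with none; mouse: 34958, 932 and 9211). For 41043 human probe sets the gene number was found in RefSeq, and the symbol given there was used, whether or not it differed.

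Each cell model was fitted alone in limma 3.58.1 (R 4.3.3), with 1 coefficient per group, lmFit and eBayes, Benjamini-Hochberg adjustment over all genes and a threshold of 0.05. The brightest probe set stood for a gene, which was tested if above percentile 40 on at least 2 arrays. Other fits compared effects between lines (32 arrays) and DMSO levels (the DMSO arrays of the 4 human lines). In the latter the MOLM-13 arrays entered no comparison but shared the choice of probe set, the filter and the estimate of the spread. The genes and lists were chosen with earlier results of these data known. Pathway genes named are the largest called rises and falls per model, up to 2 each, and those called one way in at least 3 models. On simulated data, 75 to 98% of genes changed by 1 log2 unit and 38 to 84% of those changed by 0.5 were called for EPZ004777. Whether replicate numbers pair arrays is not settled, and the main fit used no block. Same-numbered arrays correlated below 0 in at least 1 pair of groups in each model (lowest -0.48, in REH). The median over same-numbered pairs was -0.05 in RS4;11, -0.11 in SEM, -0.09 in REH and -0.03 in MOLM-13. In the mouse cells it was 0.1, against -0.07 for different numbers, and 9 of 18 same-numbered pairs exceeded 0.1. No arrays were identical (highest r = 0.9976 human, 0.9981 mouse). Alternatives were no filter, renewed quantile normalization, averaged or separate probe sets, a replicate block, array weights, an actin covariate, a shared human fit, and leaving out arrays.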

Additional observations from a re-analysis of the deposited data

Results flagged for a closer look

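Of the changes from DMSO, 9 differed between the lines with KMT2A-AFF1 and REH in a test of the difference itself (limma, mean effect in RS4;11 and SEM minus that in REH, adjusted over all genes). For CCND2 the difference was -1.24 with EPZ004777, -0.64 with MI-2-2 and -1.28 after both compounds. The MI-2-2 value was not called without any 1 of 8 arrays (adjusted p from 0.0538 to 0.0983), with the replicate block (-0.54, adjusted p = 0.107) or with array weights (-0.52, adjusted p = 0.144). For CDK6 it was -0.28 with MI-2-2 and -0.47 with the combination, for CCNE1 0.47 with either, for CDK4 -0.37 with the combination, and for CCNE2 0.62 with the combination.

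In 9 further cases every treated array of 1 model lay above its DMSO mean and every array of another below it, and the difference was not tested. No such count was made over all genes, so nothing is read from this number. The rule uses the DMSO mean and not single DMSO arrays. Mouse Ccnd2 with EPZ004777, for example, read 9.53, 9.29 and 10.67, with 1 DMSO array at 9.71. With EPZ004777, CDKN1B stood at 0.09 in RS4;11 and -0.11 in SEM, 0.2 apart. Between MOLM-13 and the mouse cells, with EPZ004777, CCND1 stood at -0.55 and 0.12 (a difference of -0.67) and CCND2 at -0.13 and 1.34 (-1.48). With MI-2-2, CDK4 stood at 0.1 and -0.09 (0.19), CCND2 at -0.11 and 1.69 (-1.8) and CCNE2 at 0.16 and -0.12 (0.29). With the combination, CCNE1 stood at 0.32 and -0.19 (0.51), CCNE2 at 0.66 and -1.15 (1.81) and CDKN1B at -0.24 and 0.61 (-0.85). The last gene and CCNE2 were called in opposite directions in the 2 models, which differ in species, array and culture.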

How the results depend on the processing

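Of 43 calls against DMSO, 24 were kept under each alternative in which the gene was tested. CCND1 in REH was not tested with probe sets averaged. Counts of the genes called are given below as main and alternative value, without the shares over all genes. Counts over all genes moved by more than 1.5-fold too. They rose in 6 comparisons and fell in 1 with array weights, and rose in 2 and fell in 7 with the actin covariate. They fell in 8 with the replicate block and rose in 5 in the shared human fit. With 1 array left out they rose in 11 cases and fell in 62. A changed count is therefore not read as a result about these genes. With probe sets averaged, RS4;11 went from 0 to 2 with EPZ004777, 0 to 2 with MI-2-2 and 0 to 1 for the combination against MI-2-2, SEM from 2 to 1 for that contrast, and REH from 2 to 1 with EPZ004777, 2 to 1 with the combination, 1 to 0 for the combination against EPZ004777 and 2 to 1 against MI-2-2; the EPZ004777 difference from REH went from 1 to 2. Averaging turned CCND3 in RS4;11 with the combination to 0.18 and CDK6 in DMSO-treated SEM against REH to 0.91. Other probe sets entered these means, and that of CCND3 did not pass the filter. With the replicate block, RS4;11 went from 4 to 1 with the combination and 3 to 1 against EPZ004777, and SEM from 2 to 1 with EPZ004777; same-numbered arrays correlated above 0.1 in 2 of 15 pairs in RS4;11 and 2 of 10 in SEM. In the shared human fit, RS4;11 combination against MI-2-2 went from 0 to 2, REH MI-2-2 from 1 to 2, MOLM-13 combination against EPZ004777 from 6 to 3, and the differences from REH from 1 to 3 (EPZ004777) and 3 to 5 (MI-2-2). In SEM, no filter gave 0 with EPZ004777 and 1 for the combination against MI-2-2, quantile normalization 1 and 1, and separate probe sets 1 for the latter. Array weights gave SEM 4 with EPZ004777 and 5 with MI-2-2, REH 1 with EPZ004777 and 2 for the combination against it, MOLM-13 4 with MI-2-2, 2 for the EPZ004777 difference, and 5 for RS4;11 against SEM in DMSO; they were not run in the mouse cells. The actin covariate, which overlaps with the groups in SEM, gave SEM 0 with EPZ004777, 0 with MI-2-2, 0 with the combination, 0 for the combination against EPZ004777 and 1 against MI-2-2, REH 1 and 0 with EPZ004777 and MI-2-2, the mouse cells 1 with EPZ004777, and RS4;11 against SEM in DMSO 5; it was not run for the differences from REH. Without both REH DMSO replicates 1 and 3, REH had 1 with EPZ004777 and 0 with MI-2-2, the MI-2-2 difference 1, and RS4;11 against SEM in DMSO 6. Without both mouse combination replicates 2 and 3, EPZ004777 gave 3. Where not stated, causes were not tested. Leaving out 1 array at a time gave 0 to 4 for RS4;11 with the combination, 1 to 3 against EPZ004777 and 0 to 1 against MI-2-2, 0 to 2 for SEM with EPZ004777 and 0 to 2 for its combination against MI-2-2, 1 to 2, 0 to 2 and 0 to 1 for REH with EPZ004777, with MI-2-2 and for the combination against EPZ004777, 0 to 3 for the mouse cells with EPZ004777, 1 to 2 and 2 to 5 for the EPZ004777 and MI-2-2 differences, and 3 to 7 for RS4;11 against REH in DMSO. Groups of 2 arrays and dim signals, as of CCND1 in REH, limit the precision.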
